A study of Mus musculus with 8 samples.

Results

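Wnt signalling in the mouse embryonic outflow tract (OFT) was described through 52 genes of the pathway, selected by symbol from the 14608 genes of an RNA-seq table. The selection took the Wnt ligands, the Frizzled and Lrp5/6 receptors, and the secreted inhibitors of the Dkk and Sfrp families with *Wif1*. It also took the R-spondins, the planar polarity genes and the core transducers. It was made by symbol, but with earlier results of these data known, so counts of members below are descriptions. The table lists genes that reached 1 CPM in at least 4 libraries, and of the 65 annotated protein-coding genes that the symbols cover, 52 had a row. The other 13 were not analysed here: *Wnt1*, *Wnt3*, *Wnt3a*, *Wnt6*, *Wnt7a*, *Wnt7b*, *Wnt8a*, *Wnt8b*, *Wnt10a*, *Wnt10b*, *Wnt16*, *Dkk4* and *Rspo4*.

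The study combined an allele of *Mib1*, the ubiquitin ligase that activates NOTCH ligands, with a null allele of *Gata6*, a transcription factor of the developing heart, and asked whether the genes interact in valve and septum formation. Poly(A) RNA was sequenced from OFT at embryonic day 11.5. The 4 control libraries were labelled only as control, and the 4 mutant libraries carried 1 copy each of both alleles, *Mib1V943F/+ Gata6STOP/+*. Both are germline alleles, carried by all cells, each library pooled material from 3 individuals according to its label, and no single-mutant library was analysed here. Nothing in the labels says that the pools came from separate litters, so the p-values measure the spread between these pools.

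Wnt proteins are lipid-modified secreted ligands. In the canonical branch a Wnt bound to a Frizzled receptor and *Lrp5* or *Lrp6* draws Dishevelled and Axin to the membrane, so that beta-catenin escapes destruction and joins TCF/LEF factors on target genes. In the non-canonical branches ligands such as *Wnt5a* and *Wnt11* act through Frizzled and Ror receptors with Vangl proteins on cell polarity and movement, and mouse embryos lacking *Wnt5a*, *Wnt11* or *Vangl2* form and septate the OFT abnormally.

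Values were deposited as CPM, read counts scaled to a common library size, which the authors had normalised between libraries. Reads on listed genes ran from 10669420 in control replicate 2 to 30469165, so that 1 read was worth 0.0948 CPM in the shallowest library and 0.0325 CPM in the deepest. In these libraries the RNA of the mutated genes did not set the groups apart. The log2 difference, mutant minus control, was -0.08 for *Gata6* (limma, adjusted p 0.752) and 0.07 for *Mib1* (limma, adjusted p 0.746). The paper describes *Mib1V943F* as a missense allele, which alters the protein, so the level of *Mib1* RNA cannot check that genotype. Control and mutant here thus mean libraries so labelled. The paper states that quantitative PCR gave *Gata6* mRNA at the predicted reduced level in mutants of this genotype. Markers listed for the tissue were present, with all 18 cardiomyocyte genes and all 12 cushion mesenchyme genes measured, whereas 8 of 10 markers of pharyngeal endoderm and epithelium had no row. The cardiomyocyte markers were lower in mutants in 18 of 18 cases, 17 of them at an unadjusted limma p under 0.05, where 6.62% of all genes were lower at that threshold, and 0 of 18 passed Benjamini-Hochberg adjustment (lowest adjusted p 0.142 in limma). They summed to 30202 to 35331 CPM in controls against 23934 to 28143 CPM in mutants. Markers of the second heart field summed to 215 to 243 CPM in controls and 233 to 282 CPM in mutants. The 10 erythroid markers varied within both groups, from 1840 to 3752 CPM and from 1544 to 5761 CPM. In bulk tissue fewer cells of a type and less RNA per cell cannot be told apart, and the part of cell composition in the Wnt values below was not tested.

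Genes with a row had already reached 1 CPM in at least 4 libraries. Of the 19 annotated Wnt ligand genes, 11 had no row. Of the 52 genes, 47 reached 1 CPM in all 8 libraries and 37 had a mean of at least 10 CPM over all libraries, while 8 averaged under 5 CPM. Divided by exon length to allow comparison between genes, the levels were led by *Sfrp1* at 64.2 CPM per kilobase, *Fzd1* at 61.5, *Sfrp2* at 61.2 and *Fzd2* at 55.8 CPM per kilobase, each the mean of 8 libraries. The library values of these leading genes overlapped, so their order was not resolved. At the other end, *Rspo2*, *Sfrp4* and *Rnf43* were at 0.363, 0.250 and 0.191 CPM per kilobase.

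Within most families few genes carried most of the RNA. The Dishevelled level was more evenly spread, with *Dvl3* at 48.2%, *Dvl1* at 27.4% and *Dvl2* at 24.4%. *Wnt5a* made up 41.0% of the summed per-kilobase level of the 8 ligands, *Wnt11* 23.1% and *Wnt4* 11.1%. Among the 10 Frizzled receptors *Fzd1* held 38.5% and *Fzd2* 34.9%. *Rspo3* held 88.3% of the R-spondin level, *Dkk3* 81.2% of the Dkk level and *Tcf7l1* 56.1% of the TCF/LEF level. The Sfrp level was shared almost wholly between *Sfrp1* with 50.8% and *Sfrp2* with 48.4%. The plot of levels by library sets out each gene by role.

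**Figure D1:**
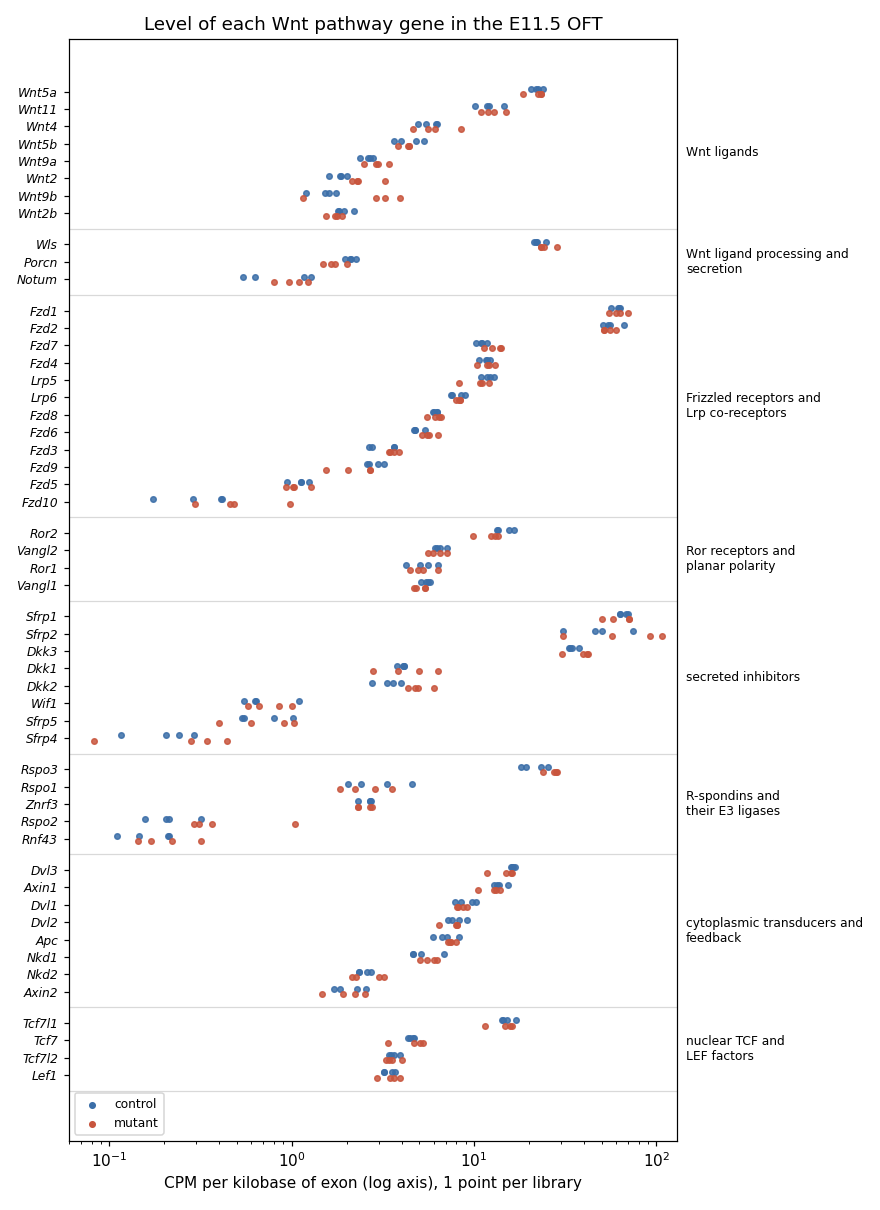
Expression of the 52 Wnt pathway genes in blocks by role, in CPM per kilobase of exon on a log axis, with 1 point for each of the 4 control (blue) and 4 mutant (red) libraries. *Wnt5a* leads the ligands, *Fzd1* and *Fzd2* lead the receptors, *Sfrp1* and *Sfrp2* lead the inhibitors, and the points of both groups overlap for 50 of the 52 genes.

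Sequence upstream of the start was examined because a shared short motif would be a feature that the selection by symbol did not use. RefSeq promoter windows of 300 bases, 250 before the start and 50 after it (GRCm38.p6), were matched by symbol for 34 of the 52 genes, with 43 windows in all. The bases before the start are shown for *Dkk2*, *Fzd7* and *Ror2*, which had low unadjusted p-values, and for *Wnt11*, an OFT ligand whose window holds the core letters bound by TCF/LEF factors. Each runs 5′ to 3′ on the strand of its gene, with *Dkk2* at chr3:132085042-132085291, plus strand, *Fzd7* at chr1:59481897-59482146, plus strand, *Ror2* at chr13:53286125-53286374, minus strand, and *Wnt11* at chr7:98834862-98835111, plus strand. Capitals mark TATAAA, letters that basal transcription factors bind, and ATCAAAG, the reverse complement of the TCF/LEF core CTTTGAT.
Dkk2: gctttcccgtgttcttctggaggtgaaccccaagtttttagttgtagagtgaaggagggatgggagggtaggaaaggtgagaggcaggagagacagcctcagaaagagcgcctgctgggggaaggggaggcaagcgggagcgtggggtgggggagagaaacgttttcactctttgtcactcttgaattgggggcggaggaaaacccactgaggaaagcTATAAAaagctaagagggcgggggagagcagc
Fzd7: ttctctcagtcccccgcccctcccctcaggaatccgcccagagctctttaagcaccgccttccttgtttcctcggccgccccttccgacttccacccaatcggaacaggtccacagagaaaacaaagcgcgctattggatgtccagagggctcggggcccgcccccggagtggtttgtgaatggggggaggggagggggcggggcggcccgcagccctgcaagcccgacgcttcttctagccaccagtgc
Ror2: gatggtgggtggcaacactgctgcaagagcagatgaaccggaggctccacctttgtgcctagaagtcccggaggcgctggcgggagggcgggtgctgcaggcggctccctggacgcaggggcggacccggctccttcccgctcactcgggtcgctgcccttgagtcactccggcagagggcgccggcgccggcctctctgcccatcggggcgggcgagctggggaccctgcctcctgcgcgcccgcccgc
Wnt11: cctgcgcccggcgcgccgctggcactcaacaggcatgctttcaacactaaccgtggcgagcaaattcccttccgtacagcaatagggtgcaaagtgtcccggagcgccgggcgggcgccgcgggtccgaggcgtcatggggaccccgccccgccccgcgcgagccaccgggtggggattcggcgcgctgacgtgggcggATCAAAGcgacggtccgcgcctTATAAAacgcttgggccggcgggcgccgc

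TATAAA began 32 bases before the start of *Dkk2* and 29 bases before that of *Wnt11*, and ATCAAAG began 51 bases before the start of *Wnt11*. On either strand the TCF/LEF core CTTTGAT was in 2 of 43 windows (*Wnt11* and *Wnt5b*), or 4.65%, against 2.50% of the 13805 windows of all genes in the table. The GATA core AGATAA was in 4 windows (*Fzd1*, *Lef1*, *Sfrp5* and *Tcf7l2*), or 9.30%, against 6.56%. The RBPJ core TGGGAA, bound by the DNA-binding partner of NOTCH, was in 10 windows, or 23.26%, against 23.18%. TATAAA was in 8 windows, or 18.6%, against 7.45%. A match is a description of the letters only. The 43 windows had a median G and C content of 66.7%, against 52.7% over all 32851 RefSeq windows, and a median of 24 CpG against 7. Those 32851 include genes with no row here, and the medians over the 13805 windows of listed genes were not taken.

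Between genotypes no member passed the threshold: 0 of 52 genes had an adjusted p under 0.05 in limma with Benjamini-Hochberg adjustment, as was so for 0% of all 14608 genes tested. The paper reports differentially expressed genes for this comparison from a generalized linear model in edgeR, a test not run here. At an unadjusted limma p under 0.05, 7 members were higher in mutants (*Dkk2*, *Rspo3*, *Fzd7*, *Wnt2*, *Wnt9b*, *Fzd6* and *Rspo2*), which is 13.5% of the members against 5.45% of all genes. In the other direction 2 were lower (*Ror2* and *Porcn*), 3.85% against 6.62% of all genes. Those 7 and 2 became 8 and 0 once the trend of each library over GC content was removed. The 7 became 4 without control replicate 3, and the 2 became 0 without control replicate 2 and 1 without control replicate 1, 3 or 4 or mutant replicate 1 or 2. The shares of all genes were taken for the main fit only, so these changed counts have no such share beside them. All 4 mutant libraries lay above all 4 controls for 2 members, *Dkk2* and *Wnt2*, or 3.85% against 3.2% of all genes. All lay below for 0 members against 3.9% of all genes. In an exact two-sided permutation test over relabellings of the libraries, p was 0.0286 for *Dkk2* and *Wnt2*. It was above 0.05 for the other members named here: 0.0571 for *Fzd7*, *Fzd6*, *Rspo3*, *Ror2* and *Porcn*, 0.0857 for *Rspo2* and 0.143 for *Wnt9b*.

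The median log2 difference of the members was 0.02, where that of all genes was 0.001, with 28 members higher and 24 lower in direction. With the GC trend removed, *Axin2*, *Dvl1*, *Dvl2*, *Fzd2*, *Fzd8*, *Sfrp5*, *Tcf7l1* and *Wnt5b* turned from lower to higher. *Lef1* and *Lrp6* turned from higher to lower, so the split in direction depends on the processing. For 35 of 52 members the 95% interval of the difference lay within 0.5 on either side of 0 on the log2 scale, which bounds those differences at 1.41-fold. The intervals of *Dkk2*, *Fzd10*, *Rspo2*, *Sfrp2*, *Sfrp4* and *Wnt9b* reached beyond 0.75. The plot of differences sets out all 52 by role. All log2 differences are on the scale of log2(CPM + 0.5), which understates the change of genes near the detection limit.

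**Figure D2:**
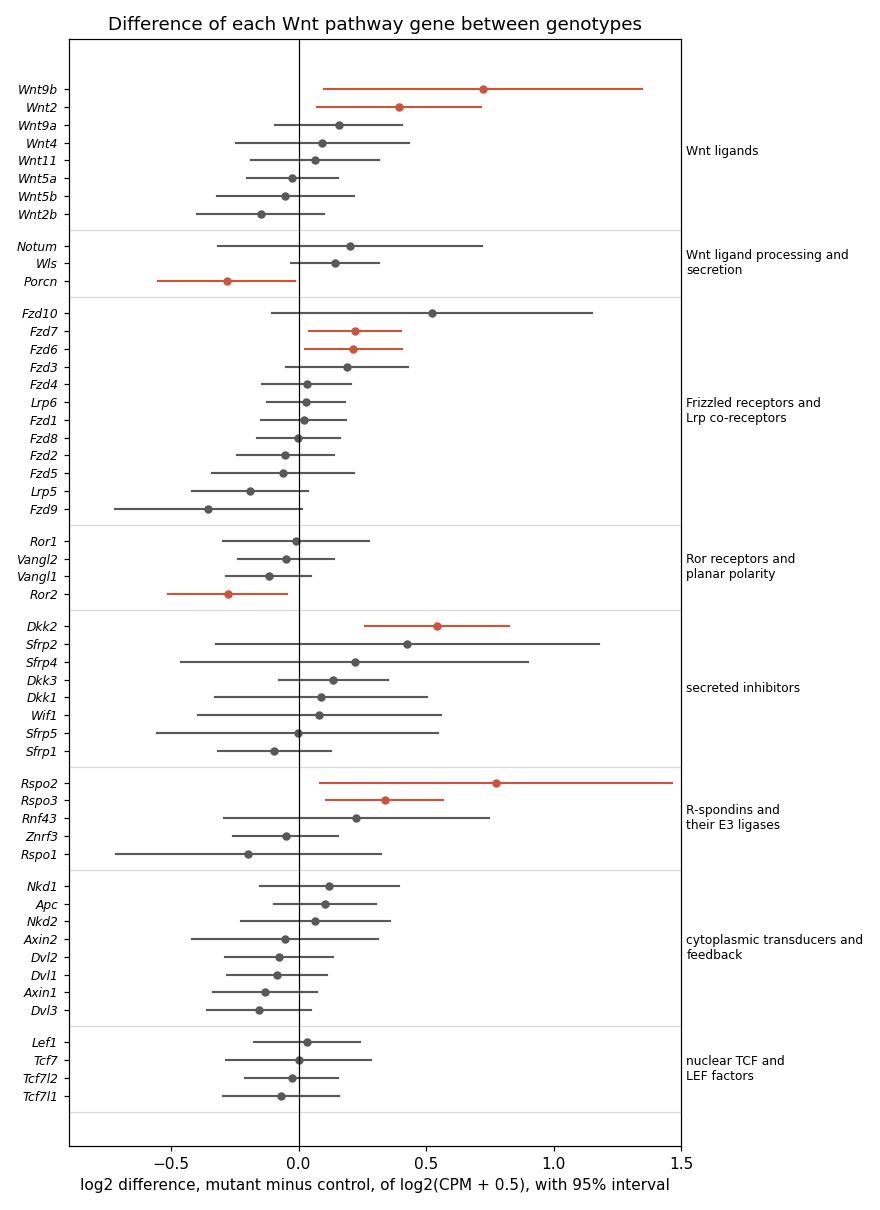
Log2 difference, mutant minus control, of log2(CPM + 0.5) for each of the 52 genes with its 95% interval from limma, in blocks by role. The 9 genes in red had an unadjusted p under 0.05 and 0 passed the adjusted threshold. *Wnt9b* and *Rspo2* have the highest estimates with wide intervals, and the TCF/LEF factors lie close to 0.

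Among the 8 ligands the abundant ones did not separate the genotypes, and the 2 with an unadjusted p under 0.05 were scarce ligands, *Wnt9b* and *Wnt2*, both higher in mutants. *Wnt9b*, a canonical ligand known from endocardial cells of the valve-forming cushions (chr11:103727364-103749821, GRCm38), was at 5.44, 6.92, 7.26 and 7.90 CPM in the controls (replicates 1 to 4) and at 5.23, 17.7, 14.6 and 13.02 CPM in the mutants (replicates 1 to 4). Mutant replicates 2 to 4 lay above every control, whereas mutant replicate 1 was the lowest of all 8 libraries. The means were 6.88 ± 1.04 CPM in controls and 12.6 ± 5.31 CPM in mutants (SD, n = 4 each), a log2 difference of 0.72 (SE 0.286, limma p 0.0266, Benjamini-Hochberg adjusted p 0.376). Without mutant replicate 1 the log2 difference was 1.08 (limma, adjusted p 0.118), and the unadjusted limma p was 0.0719, 0.0875, 0.0748 and 0.0588 without control replicate 1 and mutant replicates 2, 3 and 4.

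*Wnt2*, a canonical ligand known from the venous pole of the heart (chr6:17988940-18030585), was at 4.14, 4.55, 3.63 and 4.20 CPM in the controls (replicates 1 to 4) and at 7.33, 4.86, 5.23 and 5.14 CPM in the mutants (replicates 1 to 4). The groups did not overlap, but the gap between them was narrow, and mutant replicate 1 stood well above the other mutants. The means were 4.13 ± 0.380 CPM in controls and 5.64 ± 1.14 CPM in mutants (SD, n = 4 each), a log2 difference of 0.39 (SE 0.147, limma p 0.0204, Benjamini-Hochberg adjusted p 0.354). The exact permutation p over the 70 relabellings of 4 against 4 was 0.0286, the smallest this design can give, and without mutant replicate 1 the log2 difference was 0.27 (limma p 0.0737). The limma p was 0.0594 without control replicate 3.

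*Wnt5a*, the leading ligand of the tissue and a driver of non-canonical signalling (chr14:28504750-28527448), was at 170.5, 175, 161 and 186 CPM in the controls (replicates 1 to 4) and at 181, 144.7, 176 and 182 CPM in the mutants (replicates 1 to 4). The groups overlapped throughout, with mutant replicate 2 alone below the rest. Its difference was -0.02 on the log2 scale (95% interval -0.20 to 0.16). *Wnt11*, the next most abundant and likewise non-canonical, averaged 50.2 CPM in controls and 52.4 CPM in mutants, a difference of 0.06 on the log2 scale (95% interval -0.19 to 0.32). *Wnt4* had an SD of 2.73 CPM among controls and 6.90 CPM among mutants, with 35.6 CPM in mutant replicate 3 against 19.3 to 26.4 CPM in the 7 other libraries. *Wnt9a*, *Wnt2b* and *Wnt5b* had log2 differences between -0.15 and 0.16, each with a limma p above the unadjusted threshold.

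Of the genes of ligand maturation, *Porcn*, *Wls* and *Notum*, 1 of 3 had an unadjusted limma p under 0.05, *Porcn*, which was lower in mutants. *Porcn*, the acyltransferase that attaches the lipid Wnt proteins need (chrX:8193848-8206525), was at 5.91, 6.73, 6.29 and 6.36 CPM in the controls (replicates 1 to 4) and at 4.90, 6.03, 5.17 and 4.46 CPM in the mutants (replicates 1 to 4). Mutants tended lower, and only mutant replicate 2 reached into the control range. The means were 6.32 ± 0.338 CPM in controls and 5.14 ± 0.665 CPM in mutants (SD, n = 4 each), a log2 difference of -0.28 (SE 0.123, limma p 0.0414, Benjamini-Hochberg adjusted p 0.402). The limma p was 0.113 with the GC trend removed (log2 difference -0.21), 0.0536 with the replicate block and 0.0566 when genes averaging under 5 CPM were left out of the fit. With 1 library left out at a time it was under 0.05 in 2 of 8 fits, those without control replicate 1 or mutant replicate 2, and reached 0.124 without mutant replicate 4.

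*Wls*, the carrier that takes Wnt proteins to the cell surface (chr3:159839672-159938664), was the most abundant of these genes per kilobase at 194, 187, 192 and 218 CPM in the controls (replicates 1 to 4) and at 205, 250.3, 205 and 214 CPM in the mutants (replicates 1 to 4). The libraries overlapped, with mutant replicate 2 highest. Its difference was 0.14 on the log2 scale (95% interval -0.03 to 0.32), and it was 0.08 without mutant replicate 2 and 0.04 with the GC trend removed. *Notum*, an extracellular enzyme that strips the lipid from Wnt proteins and is itself a beta-catenin target, averaged 2.17 CPM in controls and 2.47 CPM in mutants with an SD of 0.895 CPM among controls, so that its interval ran from -0.32 to 0.72 on the log2 scale.

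Among the receptors, 2 of 10 Frizzled genes, *Fzd7* and *Fzd6*, were higher in mutants at an unadjusted limma p under 0.05 and 0 were lower. *Fzd7*, a receptor used in both branches (chr1:59482424-59486955; upstream sequence given above), was at 46.7, 50.4, 49.7 and 53.2 CPM in the controls (replicates 1 to 4) and at 62.6, 51.1, 63.7 and 56.7 CPM in the mutants (replicates 1 to 4). Mutant replicates 1, 3 and 4 exceeded all controls and mutant replicate 2 lay within their range. The means were 49.98 ± 2.68 CPM in controls and 58.5 ± 5.82 CPM in mutants (SD, n = 4 each), a log2 difference of 0.22 (SE 0.0823, limma p 0.0196, Benjamini-Hochberg adjusted p 0.352). Without mutant replicate 2 the log2 difference was 0.28 (limma p 0.00187, adjusted p 0.303), whereas the limma p was 0.0577, 0.061 and 0.0697 without control replicate 1, mutant replicate 1 and mutant replicate 3.

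*Fzd6*, a receptor of planar polarity (chr15:39006034-39038188), was at 22.4, 22.8, 22.8 and 25.9 CPM in the controls (replicates 1 to 4) and at 24.9, 30.7, 26.7 and 27.1 CPM in the mutants (replicates 1 to 4). Only mutant replicate 1 lay inside the range of the controls, of which replicate 4 was highest. The means were 23.5 ± 1.62 CPM in controls and 27.4 ± 2.42 CPM in mutants (SD, n = 4 each), a log2 difference of 0.21 (SE 0.0873, limma p 0.0299, Benjamini-Hochberg adjusted p 0.381). With 1 library left out at a time, the limma p of *Fzd6* was under 0.05 in 3 of 8 fits and reached 0.0735 without mutant replicate 2. It was also above 0.05 without control replicate 1, 2 or 3 or mutant replicate 4. *Fzd10* had the largest difference of the role but sat near 1 CPM, at 0.937, 1.33, 0.565 and 1.35 CPM in the controls (replicates 1 to 4) and at 3.17, 0.957, 1.495 and 1.56 CPM in the mutants (replicates 1 to 4). That value rested on mutant replicate 1: the log2 difference was 0.52 (limma p 0.0941) with it and 0.27 without it.

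*Fzd1*, the Frizzled gene with the highest mean per kilobase (chr5:4753839-4758035), was at 238, 264, 259.8 and 262 CPM in the controls (replicates 1 to 4) and at 232, 253, 292 and 264 CPM in the mutants (replicates 1 to 4). No separation was seen, and *Fzd2* lay above it per kilobase in control replicate 2 and mutant replicate 2. The difference of *Fzd1* was 0.02 on the log2 scale (95% interval -0.15 to 0.19), and that of *Fzd2*, close behind it in level, was -0.05 on the log2 scale (95% interval -0.24 to 0.14). *Fzd9* was lower in mean, with 6.56 CPM in controls and 5.12 CPM in mutants and a limma p of 0.0569, the lowest values being in mutant replicates 1 and 2. The co-receptors of the canonical branch gave 0.03 on the log2 scale (95% interval -0.12 to 0.18) for *Lrp6* and -0.19 on the log2 scale (95% interval -0.42 to 0.04) for *Lrp5*. The plots of CPM by library show the 9 genes with an unadjusted p under 0.05.

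**Figure D3:**
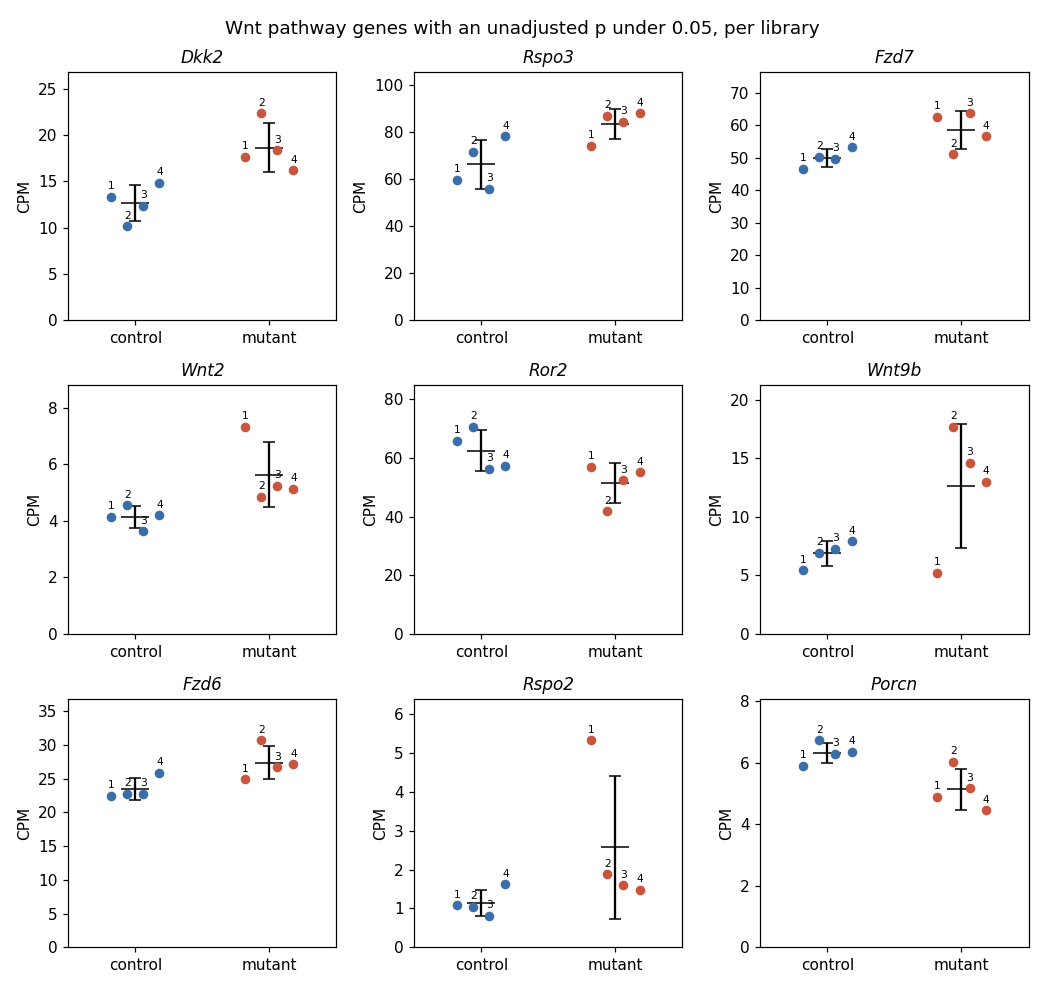
CPM of the 9 Wnt pathway genes with an unadjusted limma p under 0.05, 1 point per library numbered by replicate, with the mean (long bar) and SD (error bar) of each group of 4; each axis starts at 0. *Dkk2* and *Wnt2* do not overlap between groups, and mutant replicate 1 stands low for *Wnt9b* and high for *Rspo2*.

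The non-canonical receptor and polarity genes, *Ror1*, *Ror2*, *Vangl1* and *Vangl2*, had log2 differences below 0, 1 of the 4 at an unadjusted limma p under 0.05. All 4 were also below 0 with median-ratio scaling between libraries and with the GC trend removed, where *Vangl2* was at -0.0036 and *Ror1* at -0.04. *Ror2*, a tyrosine kinase receptor of *Wnt5a* and the most abundant of the set per kilobase (chr13:53109312-53286124; upstream sequence given above), was at 65.8, 70.7, 56.3 and 57.3 CPM in the controls (replicates 1 to 4) and at 57.1, 41.8, 52.4 and 55.2 CPM in the mutants (replicates 1 to 4). Mutant replicate 1 overlapped the lower controls and mutant replicate 2 was the lowest library. The means were 62.5 ± 6.90 CPM in controls and 51.6 ± 6.83 CPM in mutants (SD, n = 4 each), a log2 difference of -0.28 (SE 0.107, limma p 0.0234, Benjamini-Hochberg adjusted p 0.364). The log2 difference was -0.17 (limma p 0.0732) with the GC trend removed, and -0.18 (limma p 0.0586) without mutant replicate 2. The limma p was 0.0726 without control replicate 2 and 0.0589 without control replicate 1.

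*Vangl1* and *Vangl2*, membrane proteins of the planar polarity complex, gave -0.12 on the log2 scale (95% interval -0.28 to 0.05) and -0.05 on the log2 scale (95% interval -0.24 to 0.14). *Ror1* was as variable within groups as between them, from 24.4 to 36.6 CPM in controls and from 25.8 to 36.7 CPM in mutants. The sums of the 4 genes ran from 166 to 189 CPM in controls and from 152 to 170.4 CPM in mutants and overlapped.

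Of the 8 secreted inhibitors 1 had an unadjusted limma p under 0.05, *Dkk2*, which was higher in mutants and was the member with the lowest p of all 52. *Dkk2*, a ligand of *Lrp5* and *Lrp6* that blocks or, in some settings, weakly activates canonical signalling (chr3:132085292-132180304; upstream sequence given above), was at 13.3, 10.2, 12.3 and 14.8 CPM in the controls (replicates 1 to 4) and at 17.6, 22.3, 18.3 and 16.2 CPM in the mutants (replicates 1 to 4). Every mutant library exceeded every control. The means were 12.7 ± 1.95 CPM in controls and 18.6 ± 2.63 CPM in mutants (SD, n = 4 each), a ratio of 1.47 and a log2 difference of 0.54 (SE 0.129, limma p 0.00120, Benjamini-Hochberg adjusted p 0.218). It ranked 80 by p among the 14608 genes, its exact permutation p was 0.0286, and its unadjusted limma p stayed between 0.000711 and 0.00666 over 16 alternative settings.

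*Dkk1*, an antagonist of the same co-receptors, was tight among controls, at 9.20 to 10.1 CPM, and spread from 6.81 to 15.4 CPM among mutants. *Dkk3*, the most abundant Dkk gene and a divergent family member that does not bind *Lrp6*, gave 0.14 on the log2 scale (95% interval -0.08 to 0.35). The Sfrp proteins resemble the ligand-binding part of Frizzled and hold Wnt proteins outside the cell. *Sfrp1*, with the highest mean per kilobase over the 8 libraries (chr8:23411502-23449632), was at 277, 304, 298 and 275 CPM in the controls (replicates 1 to 4) and at 221, 307, 309 and 253 CPM in the mutants (replicates 1 to 4). Mutant replicates 1 and 4 lay below all controls and mutant replicates 2 and 3 above them. *Sfrp2* lay above it per kilobase in control replicate 3 and mutant replicates 2 and 3, and *Fzd1* in mutant replicates 1 and 4. The difference of *Sfrp1* was -0.10 on the log2 scale (95% interval -0.32 to 0.13).

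*Sfrp2* had the largest SE of all 52 members on the log2 scale (0.344) and was at 65.9, 99.0, 160.3 and 109 CPM in the controls (replicates 1 to 4) and at 66.1, 231, 199 and 122.6 CPM in the mutants (replicates 1 to 4). Mutant replicate 1 and control replicate 1 were equally low, and mutant replicates 2 and 3 were high. The difference of 0.43 on the log2 scale (95% interval -0.32 to 1.18) was accordingly wide. *Sfrp4*, *Sfrp5* and *Wif1*, a further Wnt-binding inhibitor, averaged under 2 CPM in both groups and their intervals all included 0.

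The R-spondins keep Frizzled receptors on the cell surface by removing the ubiquitin ligases *Znrf3* and *Rnf43*. Of these 5 genes, 2 were higher in mutants at an unadjusted limma p under 0.05, *Rspo3* and *Rspo2*. *Rspo3*, the main R-spondin of the tissue (chr10:29452416-29535867), was at 59.8, 71.7, 55.9 and 78.3 CPM in the controls (replicates 1 to 4) and at 74.2, 87.0, 84.5 and 88.0 CPM in the mutants (replicates 1 to 4). Mutants lay at or above 74.2 CPM and only control replicate 4 reached that level. The means were 66.4 ± 10.4 CPM in controls and 83.5 ± 6.33 CPM in mutants (SD, n = 4 each), a log2 difference of 0.34 (SE 0.104, limma p 0.00722, Benjamini-Hochberg adjusted p 0.284). The unadjusted limma p of *Rspo3* was at most 0.027 over 16 alternative settings.

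*Rspo2* (chr15:43020794-43170826) was at 1.08, 1.04, 0.807 and 1.62 CPM in the controls (replicates 1 to 4) and at 5.32, 1.88, 1.59 and 1.49 CPM in the mutants (replicates 1 to 4). Mutant replicate 1 stood far above every other library, and mutant replicates 3 and 4 lay just below control replicate 4. The means were 1.14 ± 0.343 CPM in controls and 2.57 ± 1.84 CPM in mutants (SD, n = 4 each), a log2 difference of 0.77 (SE 0.317, limma p 0.0311, Benjamini-Hochberg adjusted p 0.386). Without mutant replicate 1 the log2 difference was 0.41 (limma p 0.0889). Left out in turn, control replicates 1, 2 and 3 gave a limma p of 0.0557, 0.0548 and 0.0813. Mutant replicate 1 was the highest library for 4 of the 9 measured markers of the second heart field, *Eya1*, *Isl1*, *Six2* and *Tbx1*, and not for *Fgf10*, *Foxc2*, *Mef2c*, *Nrg1* and *Tlx1*. *Six2* was at 17.7 CPM there against 1.14 to 2.94 CPM in the 7 other libraries. *Isl1* was at 59.2 CPM there, 40.7 to 43.4 CPM in the other mutants and 25.7 to 33.0 CPM in controls. The part of that library's composition in the *Rspo2* and *Fzd10* values was not tested.

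*Rspo1* gave -0.20 on the log2 scale (95% interval -0.72 to 0.32) and *Znrf3* -0.05 on the log2 scale (95% interval -0.25 to 0.16), while *Rnf43* stayed near 1 CPM. Summed over the 5 genes, controls ran from 86.9 to 107 CPM and mutants from 108 to 116 CPM without overlap, a sum made up mostly of *Rspo3* and given with no test. The gap was narrow, each of the 5 genes overlapped between groups, and the sums of all other roles overlapped. Divided by exon length, the sums of these 5 genes overlapped too. Control replicate 4 was then at 30.94 CPM per kilobase and mutant replicate 1 at 30.92.

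Among the cytoplasmic genes, 0 of 8 had an unadjusted limma p under 0.05, and all 8 log2 differences were smaller than 0.2 in size. *Dvl3*, the most abundant Dishevelled gene (chr16:20516982-20534010), had the largest difference, at 105, 103, 107 and 102 CPM in the controls (replicates 1 to 4) and at 95.9, 75.5, 104 and 102 CPM in the mutants (replicates 1 to 4). Mutant replicate 2 was far below the others, and without it the log2 difference went from -0.15 to -0.05. *Axin2*, the negative regulator most widely used as a readout of canonical signalling, was at 9.44, 14.03, 10.2 and 12.5 CPM in the controls (replicates 1 to 4) and at 10.6, 8.06, 13.8 and 12.3 CPM in the mutants (replicates 1 to 4). Controls and mutants overlapped almost wholly. Its difference was -0.05 on the log2 scale (95% interval -0.42 to 0.31), and with the GC trend removed it was 0.009. *Nkd1*, another feedback inhibitor, gave 0.12 on the log2 scale (95% interval -0.15 to 0.39), *Axin1* -0.13 on the log2 scale (95% interval -0.34 to 0.07) and *Apc*, the scaffold of the destruction complex, 0.10 on the log2 scale (95% interval -0.10 to 0.30).

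The nuclear factors had the narrowest range of any role, with log2 differences from -0.07 to 0.03 and 0 of 4 at an unadjusted limma p under 0.05. *Tcf7l1*, mainly a repressor of target genes and the most abundant of the 4 (chr6:72626378-72789254), was at 56.4, 66.2, 59.3 and 55.6 CPM in the controls (replicates 1 to 4) and at 57.6, 45.3, 61.4 and 63.5 CPM in the mutants (replicates 1 to 4). Mutant replicate 2 was lowest and the rest overlapped. Its difference was -0.07 on the log2 scale (95% interval -0.29 to 0.16), and with the GC trend removed it was 0.04. *Lef1* and *Tcf7*, which activate targets and are themselves targets, gave 0.03 on the log2 scale (95% interval -0.17 to 0.24) and 0.00 on the log2 scale (95% interval -0.28 to 0.28), and *Tcf7l2* gave -0.03 on the log2 scale (95% interval -0.21 to 0.16).

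Beyond these 52, other genes of the pathway were counted from lists drawn up from general knowledge. Of the 24 measured genes known to rise with beta-catenin signalling, 8 of which are members, 1 was higher (*Id2*) and 1 lower (*Mycn*) at an unadjusted limma p under 0.05, with a median log2 difference of 0.05. *Mycn*, a growth regulator, ran from 55.1 to 67.0 CPM in controls and from 42.0 to 49.3 CPM in mutants, a log2 difference of -0.38 (SE 0.082, limma, adjusted p 0.195). Of 19 other receptors and surface modulators, 3 were higher (*Cthrc1*, *Reck* and *Tpbg*) and 3 lower (*Kremen1*, *Gpc1* and *Gpc4*), with a median of 0.05. *Kremen1*, a receptor through which Dkk proteins remove *Lrp6* from the membrane, ran from 104 to 116 CPM in controls and from 92.7 to 98.2 CPM in mutants, a log2 difference of -0.17 (SE 0.0619, limma, adjusted p 0.333).

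Of 27 genes of planar polarity and non-canonical transduction, 2 were higher (*Daam2* and *Plcb1*) and 4 lower (*Celsr1*, *Celsr2*, *Camk2a* and *Nfatc2*), with a median of 0.03. *Celsr1*, a cadherin of the planar polarity complex, averaged 33.9 CPM in controls and 28.9 CPM in mutants, and *Camk2a* 101 CPM and 75.8 CPM. Of 24 destruction complex genes and partners, 2 were higher (*Csnk1g3* and *Dact1*) and 1 lower (*Frat2*), with a median of 0.03. *Dact1*, a binding partner of Dishevelled, ran from 95.5 to 105 CPM in controls and from 108 to 122 CPM in mutants. Of 18 nuclear cofactors, 1 was higher (*Pygo1*) and 1 lower (*Tle5*), with a median of -0.01. None of these list genes passed the adjusted threshold in limma, and the share of all genes past the unadjusted threshold is the one given above for each direction.

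Library by library, the deviation of each member from the control mean was taken. The median size of the log2 deviation was 0.227 in mutant replicate 2, 0.141 to 0.175 in the other mutants and 0.0817 to 0.115 in the controls, whose own mean is the reference. Mutant replicate 2 was the lowest library for 14 of the 52 members and the highest for 9. Of the marker sums, mutant replicate 2 had the highest for erythroid cells, 5761 CPM, epicardium, 673 CPM, cushion mesenchyme, 7103 CPM, and macrophages, 91.8 CPM. It had the lowest for cardiomyocytes, 23934 CPM, smooth muscle, 2774 CPM, and neural crest, glia and neurons, 206 CPM. It was neither highest nor lowest for endocardium and endothelium, the second heart field or pharyngeal endoderm. The part of cell composition in the Wnt values of this library was not tested. The map of deviations shows that *Wnt9b* was high in mutant replicates 2 to 4 and that *Rspo2* and *Fzd10* were high in mutant replicate 1.

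**Figure D4:**
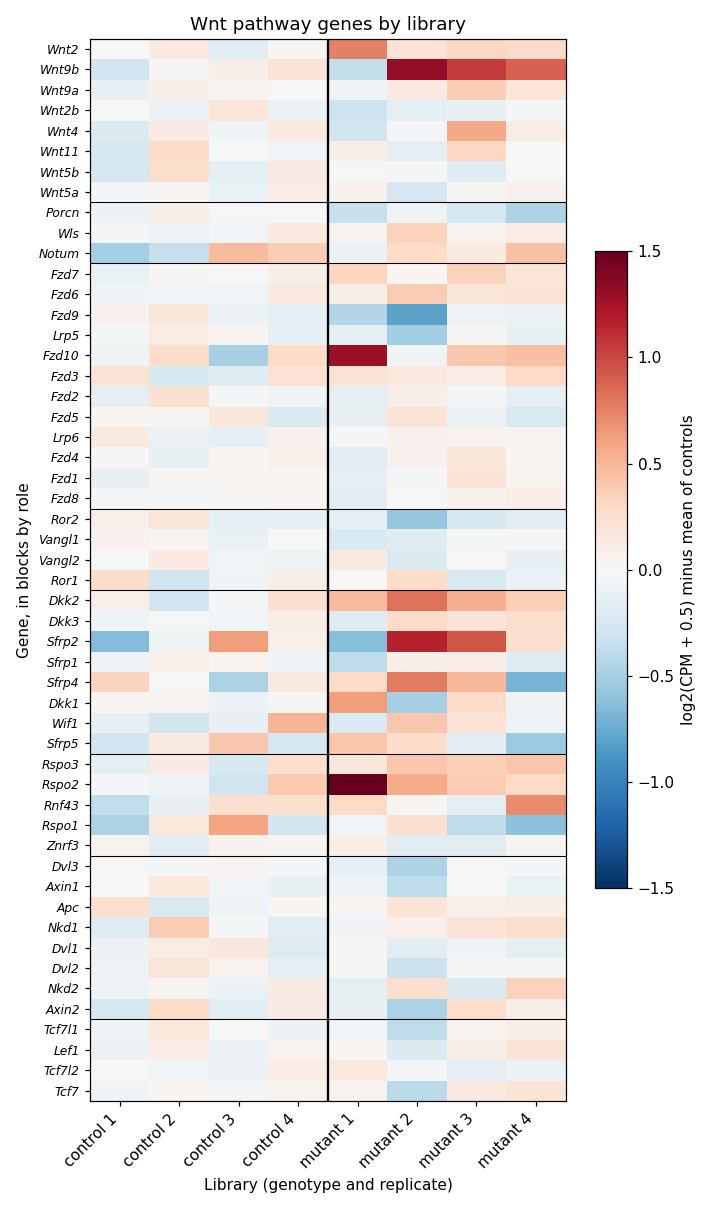
Deviation of log2(CPM + 0.5) from the mean of the 4 controls for each of the 52 genes (rows, in blocks by role) in each library (columns; the thick line divides controls from mutants). Colour is full at a deviation of 1.5 below (blue) or above (red) that mean, and 1 cell lies beyond it, *Rspo2* in mutant replicate 1. *Dkk2* and *Rspo3* are above 0 in all 4 mutants.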

How the data were processed

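Poly(A) RNA from 8 OFT pools (4 control, 4 mutant, 3 individuals each per the labels; the study's methods describe the pooling differently) was sequenced as 60 bp reads from a directional kit. Per the labels and the study's methods, the authors trimmed adapters with cutadapt, quantified genes with RSEM over GRCm38, kept genes at 1 CPM in at least 3 samples, and normalised by the TMM method in edgeR. The deposited table holds these CPM for 14608 genes, with column sums of 983361 to 1016347, and 0 columns were left out. Whether counting used strand is not given in the sources used here.

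Values were tested as log2(CPM + 0.5) with limma 3.58.1 (lmFit, eBayes with trend, group as the only term) in R 4.3.3, with Benjamini-Hochberg adjustment over all genes and a threshold of 0.05. The test was checked on simulated data. Single genes were also tested by an exact two-sided permutation test over 70 relabellings. Values were whole multiples of 1 step per library within 0.01 reads, which gives the depth on listed genes. Intervals cover the spread between pools. Exon lengths and positions came from GENCODE M21, matched for 14594 genes, and upstream sequences from RefSeq (GRCm38.p6), credited as such. Named genes were those with an unadjusted p under 0.05, those without overlap, and in each role the largest difference and the highest level per kilobase. *Sfrp2*, *Axin2* and the further genes given with values were added after their values were seen. Members, lists and tests were chosen with earlier results of these data known. Alternatives changed the pseudocount, low-value filter, trend, scaling, GC correction, replicate block and libraries used.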

Additional observations from a re-analysis of the deposited data

Results flagged for a closer look

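In groups of 4, a library was set apart when its gap to the nearest other library took a larger part of the group's range than Dixon's 95% critical value. Of 104 gene and group pairs examined, 10 met this, where chance flags about 1 in 20, or 5.2. Among controls, *Fzd6* was high in replicate 4 at 25.9 CPM, *Fzd1* was low in replicate 1 at 237.5 CPM, *Znrf3* was low in replicate 2 at 18.3 CPM, *Dkk1* was low in replicate 3 at 9.20 CPM, and *Wif1* was high in replicate 4 at 2.66 CPM.

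Among mutants, *Rspo2* was high in replicate 1 at 5.32 CPM and *Wnt2* was high in replicate 1 at 7.33 CPM. *Wnt5a* was low in replicate 2 at 144.7 CPM, *Dvl2* was low in replicate 2 at 40.3 CPM, and *Wnt5b* was low in replicate 3 at 10.2 CPM. No library held more than 2 of the 10.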

How the results depend on the processing

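The count of members with an adjusted p under 0.05 was 0 in limma under all 16 alternatives, and so was the count over all genes. The count higher at an unadjusted p under 0.05 was 7, and 5 to 8 under the alternatives that kept all libraries. The count lower was 2, and it was 1 when genes averaging under 5 CPM were left out, 0 with the GC trend removed, and 1 with the GC trend removed together with the replicate block. Leaving out 1 library gave 4 to 9 higher and 0 to 3 lower. The share of all genes past the unadjusted threshold was not taken under any alternative. Whether the numbers in the labels pair the pools cannot be told from 4 pools a group. Deviations of same-numbered libraries correlated at -0.19 to 0.03, and those of other pairs at -0.22 to 0.25. With the replicate block 8 members were higher and 1 lower. The limma p with that block was 0.00628 for *Wnt9b* (adjusted p 0.455) and 0.0536 for *Porcn*.

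Of 253 comparisons of a named gene with its main value, 8 changed sign, all in genes whose main log2 difference was under 0.1 in size. Those comparisons covered 16 genes. Outside them, *Axin2* went to 0.009, *Fzd2* to 0.031, *Lrp6* to -0.016 and *Lef1* to -0.011 with the GC trend removed, each a change of sign. *Tcf7l1* went to 0.0428 with the GC trend removed, and likewise with that and the replicate block. With 1 library left out, the log2 difference of *Tcf7l1* ran from -0.1239 to 0.0372 (above 0 without mutant replicate 2), that of *Fzd1* from -0.0369 to 0.0731 (below 0 without control replicate 1 or mutant replicate 3), that of *Wnt5a* from -0.0584 to 0.0536 (above 0 without control replicate 4 or mutant replicate 2), and that of *Sfrp1* from -0.1606 to 0.0017 (above 0 without mutant replicate 1). The cause was not tested. The lowest adjusted p of any member under an alternative was 0.118 in limma, for *Wnt9b* without mutant replicate 1. Count tests on recovered reads were planned and not run. With 4 pools a group and 1 read worth up to 0.0948 CPM, differences of genes near 1 CPM such as *Rspo2*, *Rnf43* and *Sfrp4* were known only to wide intervals.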

Other observations

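The mix within each family was also followed by library, as shares of the family's summed CPM per kilobase. *Sfrp2* took 32.3% to 51.8% of the Sfrp level in controls and 37.2% to 59.98% in mutants, and *Sfrp1* most of the rest. *Wnt9b* took 2.52% to 3.21% of the ligand level in controls, 2.17% in mutant replicate 1 and 5.18% to 7.83% in the other mutants. *Wnt5a* remained the leading ligand in every library, at 37.0% to 45.6%. *Fzd1* and *Fzd2* together led the Frizzled genes in every library, with *Fzd1* at 37.0% to 40.4%. *Dkk2* took 6.60% to 8.77% of the Dkk level in controls and 8.75% to 11.8% in mutants, and *Rspo3* took 79.2% to 93.0% of the R-spondin level over all libraries. These shares were compared by range and not tested.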
